A study of Mus musculus with 6 samples.

Results

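The BCL2 family decides whether a cell keeps its mitochondria intact or dies by apoptosis, and 10 of its genes were followed here in fetal livers with and without the erythroid transcription factor Klf1. The genes were chosen by symbol: the survival genes Bcl2l1, Bcl2 and Mcl1, the pore-forming death genes Bax and Bak1, and the BH3-only death genes Bcl2l11, Bad, Bid, Bbc3 and Pmaip1. Of these 10, 9 had a probe set of their own and were measured among 19937 genes in all, each by 1 probe set, and Bax was not analysed here. RNA came from whole livers of FVB/NJ mouse embryos at embryonic day 13.5, bred from Klf1 +/- animals, with 3 wildtype and 3 Klf1-/- embryos and 1 Affymetrix Mouse Gene 1.0 ST array for each. The labels state neither which part of Klf1 was altered nor whether embryos shared a litter, and the p-values speak of the spread among these 6 embryos alone.

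Survival members of the family sit on the outer mitochondrial membrane and hold the pore-forming members in check. BH3-only members carry a short helix, the BH3 domain, with which they bind survival members and release or activate the pore formers, after which cytochrome c leaves the mitochondria and starts the caspases. In red cell formation erythropoietin signals through its receptor to keep erythroblasts alive, and Bcl2l1, which encodes BCL-XL, is known as the survival gene of late erythroblasts.

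All levels below are log2 intensities after RMA, a normalization that gives the 6 arrays like distributions. A level shows the brightness of 1 probe set, so levels of different genes were not set against each other. A change is the knockout mean less the wildtype mean in log2 units, given ± its standard error from limma. A gene counted as called where its p, adjusted by Benjamini-Hochberg over all 19937 genes, lay under 0.05. By this rule 19.1% of all genes were called, 10.8% as higher and 8.26% as lower without Klf1. The 3 wildtype and 3 knockout values did not overlap for 37.5% of all genes.

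Median intensities were alike, from 104.5 to 109.8 per array. Klf1 itself read 10.59, 10.58 and 10.76 in wildtype and 9.05, 9.38 and 9.12 in knockout livers, although its probe set need not lie in the altered part. The liver markers Alb and Afp averaged 13.93 and 13.32 in wildtype livers and were not called, and 1 of 11 hepatoblast markers, Apoa1, was called, at -0.35 ± 0.10 (62160 to 74600 against 60860 to 65110 for the list's sum), a call held in 8 of 17 alternatives. Of 10 measured erythroid markers 8 were called lower and 0 higher, with a summed intensity of 56860 to 61890 in wildtype and 32510 to 35160 in knockout livers, led by the red cell membrane gene Epb42 at -1.497 ± 0.076. Macrophage markers were lower in 8 of 12 (6559 to 8091 against 4610 to 5228), led by Lgmn at -0.94 ± 0.10. All 8 measured megakaryocyte markers were higher (18130 to 19070 against 26850 to 34580), led by Thbs1 at 1.26 ± 0.09.

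Of 10 progenitor markers 5 were higher (2689 to 2810 against 3503 to 3940), led by Slamf1 at 1.32 ± 0.08, and the other 5, Hlf, Hoxa9, Kit, Mecom and Procr, lay between -0.19 and -0.0084 and were not called. Without Slamf1 the progenitor sum was 2198 to 2350 in wildtype and 2405 to 2702 in knockout livers. The 5 became 3 without wildtype replicate 2 or 3 and 2 without knockout replicate 2. Of 10 granulocyte markers 4 were higher (4505 to 4598 against 5711 to 6825), led by Mpo at 0.58 ± 0.10, and 2 without wildtype replicate 3 or knockout replicate 3. Without moderation of the variances 0 granulocyte, 1 progenitor, 2 megakaryocyte and 2 macrophage markers were called, against 7 erythroid markers. In the lymphoid list 1 of 11 was higher, Il7r at 0.71 ± 0.09, and 1 lower (769.6 to 818.1 against 793.8 to 868.4). The count lower ranged from 0 to 2 with 1 array left out. Of the 11 lymphoid changes 7 were negative, with a median of -0.04. In the endothelial list 1 of 9 was higher, Pecam1 at 0.40 ± 0.12 (4181 to 5887 against 4416 to 5271), with 0 to 4 when 1 array was left out. Mesenchymal markers had 0 of 10 called by limma, and 1 at an unadjusted p under 0.05 (3642 to 5416 against 3395 to 4048), and 3 lower without wildtype replicate 1. No marker list was at 0 on these arrays, since RMA values have no true zero. Whether these marker changes reflect cell numbers or RNA per cell was not tested. The part that any shift in cell types has in the changes below was not tested either.

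Of the 9 measured members, 5 were called, or 55.6%, against 19.1% of all genes. Of the 9968 genes brighter than the median gene, tested alone, 3666 were called, a larger share than the 19.1% of all genes. Their p-values were adjusted over those 9968 only, so the 2 shares are not fully alike. The same 5 members were called there, and Bbc3 and Pmaip1 were too dim to enter. The survival genes Bcl2l1 and Mcl1 fell. The pore former Bak1 and the BH3-only genes Bcl2l11 and Bid rose. Bcl2, Bad, Bbc3 and Pmaip1 were not called. The median change of the 9 was -0.12, against -0.02 over all genes, and 5 of the 9 changes were negative. Both falls and the rise of Bcl2l11 held their calls in all 17 alternative analyses. The rises of Bak1 and Bid were called in 11 of 17 each, so the count of rises fell from 3 to 1 without wildtype replicate 3 or without knockout replicate 2.

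**Figure D1:**
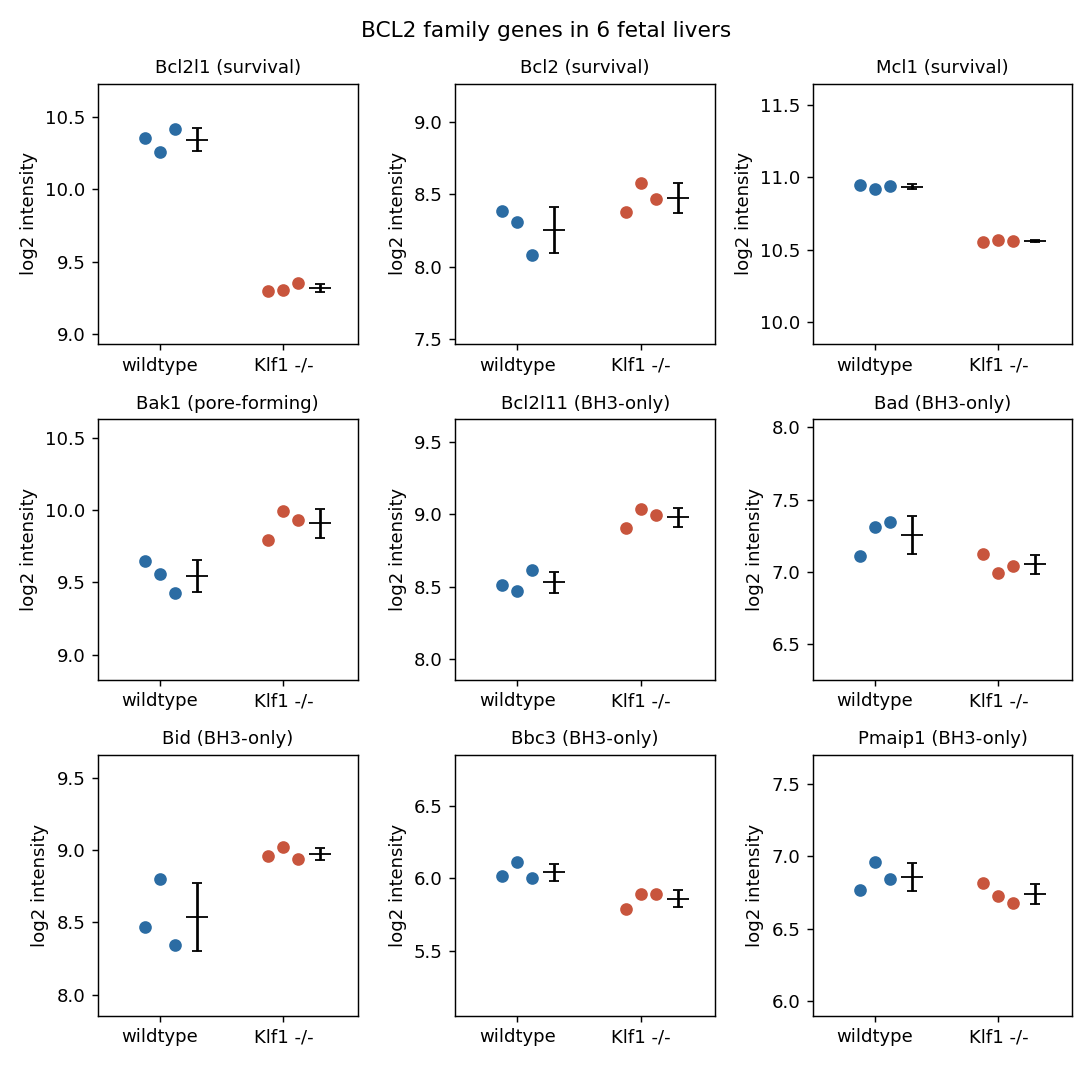
Log2 intensity of the 9 measured members in each fetal liver; each point is 1 array, the black bar and whiskers are the mean and SD of 3 arrays, and every panel spans the same range of 1.8 log2 units. Bcl2l1 lies above 10.2 in every wildtype liver and below 9.4 in every knockout liver, while the values of Bcl2, Bad and Pmaip1 overlap between groups.

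Sequences ahead of the start sites were set beside the members whose calls were the most stable, to show what the promoters of the 2 genes that fell and of the gene that rose most hold. Each line gives the 100 bases before a start site from RefSeq (GRCm38.p6), 5′ to 3′ on the gene's strand. Capitals mark matches to 3 short motifs searched on both strands with overlaps counted: CCNCNCCC, a CACCC-type sequence of the kind Klf factors bind, AGATAA, of the kind Gata factors bind, and TTCNNNGAA, of the kind Stat factors bind. Overlapping matches run together. RefSeq lists 3 start windows for Bcl2l1, 1 for Mcl1 and 2 for Bcl2l11.
Bcl2l1, chr2:152828490-152828589, minus strand: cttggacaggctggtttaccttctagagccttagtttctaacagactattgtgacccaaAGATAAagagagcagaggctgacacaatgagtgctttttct
Bcl2l1, chr2:152830718-152830817, minus strand: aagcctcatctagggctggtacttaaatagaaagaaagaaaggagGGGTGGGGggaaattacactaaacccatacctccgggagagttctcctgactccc
Bcl2l1, chr2:152831729-152831828, minus strand: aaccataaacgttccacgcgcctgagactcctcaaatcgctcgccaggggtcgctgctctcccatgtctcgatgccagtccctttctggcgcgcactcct
Mcl1, chr3:95658621-95658720, plus strand: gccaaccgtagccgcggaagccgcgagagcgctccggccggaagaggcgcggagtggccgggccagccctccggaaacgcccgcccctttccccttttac
Bcl2l11, chr2:128125938-128126037, plus strand: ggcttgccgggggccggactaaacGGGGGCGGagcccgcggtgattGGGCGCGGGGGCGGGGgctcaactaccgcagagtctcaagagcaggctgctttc
Bcl2l11, chr2:128127475-128127574, plus strand: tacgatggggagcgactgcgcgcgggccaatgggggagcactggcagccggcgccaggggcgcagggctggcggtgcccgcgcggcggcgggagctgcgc

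In 300-base windows around the starts, 250 bases before and 50 after, 9 members were searched, Bax among them. Pmaip1 was left out of this search. A CACCC-type match was found for 7 of the 9 members, in 10 of their 15 windows. The same letters were found in 49.5% of all 32851 windows. That share is per window, while a member had up to 3 windows, and windows of Bbc3 overlapped in part. A share per gene over all genes was not counted. Around the 3 Bcl2l1 starts, 1 window held 2 such matches and 2 held none, and the Mcl1 window held none of the 3 motifs. The first Bcl2l11 window held 6 CACCC-type matches, and none of those in capitals above spells CACCC itself on either strand. AGATAA was found in 1 member window, of Bcl2l1, and in 11.2% of all windows, and TTCNNNGAA in none of the 15 and in 8.3% of all. These matches describe letters and not binding, which was not measured here.

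Bcl2l1 gave the largest change of the family. It read 10.36, 10.26 and 10.41 in wildtype livers and 9.30, 9.30 and 9.35 in knockout livers, so every wildtype value lay far above every knockout value and the knockout livers were nearly identical. The mean fell from 10.34 ± 0.08 to 9.32 ± 0.03 (SD, n = 3), a change of -1.03 ± 0.08 (limma adjusted p = 6.4e-06), or 2.04-fold. Of all 19937 genes, 196 had a lower value of the change. With other processing or any 1 array left out, the change stayed between -1.07 and -0.98, and the adjusted p between 2.95e-07 and 0.00419. In a whole liver, fewer cells of a type and less RNA per cell cannot be told apart. Of the 10 erythroid markers 8 also fell, with a median change over the 10 of -0.80; Rhag, at -0.15, and Gata1, at -0.016, were not called.

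Mcl1 encodes a short-lived survival protein needed by blood progenitors. It read 10.95, 10.92 and 10.94 in wildtype livers and 10.55, 10.57 and 10.56 in knockout livers, the tightest replicates of the family. The groups did not overlap, and the mean fell from 10.94 ± 0.015 to 10.56 ± 0.0076 (SD, n = 3), a change of -0.38 ± 0.07 (limma adjusted p = 0.0041), or 1.30-fold. The 95% interval of this fall, from -0.53 to -0.22, did not overlap that of Bcl2l1, from -1.197 to -0.854; the difference between the 2 falls was not tested.

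Bcl2, the founding survival gene, stood apart from the other two in sign. Its values of 8.38, 8.31 and 8.08 in wildtype and 8.38, 8.58 and 8.47 in knockout livers overlapped by a narrow margin, wildtype replicate 1 being level with knockout replicate 1. The change of 0.22 ± 0.10 was not called (limma adjusted p = 0.148), with a 95% interval from 0.0015 to 0.43. It was positive but uncalled in all 17 alternatives, with values between 0.13 and 0.28.

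Bak1, which encodes 1 of the 2 pore-forming proteins listed, read 9.65, 9.56 and 9.43 in wildtype livers and 9.79, 9.99 and 9.93 in knockout livers. The groups did not overlap, although wildtype replicate 1 and knockout replicate 1 came close. The mean rose from 9.55 ± 0.11 to 9.91 ± 0.10 (SD, n = 3), a change of 0.36 ± 0.09 (limma adjusted p = 0.0172), or 1.28-fold. The call was lost without wildtype replicate 3 (adjusted p = 0.0534), without knockout replicate 2 (0.0746) and without knockout replicate 3 (0.0665). Over all alternatives the adjusted p ran from 0.0067 to 0.0904.

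Among the BH3-only genes, Bcl2l11 and Bid rose, and the other 3 had negative changes that were not called. Bcl2l11 encodes BIM, which binds all the main survival proteins. It read 8.51, 8.47 and 8.61 in wildtype livers and 8.905, 9.035 and 8.997 in knockout livers, with no overlap. The mean rose from 8.53 ± 0.07 to 8.98 ± 0.07 (SD, n = 3), a change of 0.45 ± 0.08 (limma adjusted p = 0.0027), or 1.36-fold, and the change stayed between 0.40 and 0.49 in the alternatives, with an adjusted p of 0.0251 at most.

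Bid, whose protein is cut by caspase 8 and carries the death receptor signal to mitochondria, was the least even member in wildtype livers. It read 8.46, 8.80 and 8.34 there and 8.96, 9.02 and 8.94 in knockout livers, so wildtype replicate 2 approached the knockout values while the others lay well below. The mean rose from 8.54 ± 0.24 to 8.97 ± 0.04 (SD, n = 3), a change of 0.44 ± 0.11 (limma adjusted p = 0.0199), or 1.35-fold. The call was lost without wildtype replicate 1 (adjusted p = 0.0546), wildtype replicate 3 (0.0663) or knockout replicate 2 (0.0675). Without wildtype replicate 2 the change was 0.57 and the adjusted p 0.0025, and over all alternatives the adjusted p reached 0.149.

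Bad encodes a BH3-only protein that survival signals silence by phosphorylation. It read 7.11, 7.31 and 7.35 in wildtype livers and 7.12, 6.99 and 7.04 in knockout livers, and wildtype replicate 1 fell within the knockout range. Its change of -0.20 ± 0.09 was not called (limma adjusted p = 0.137; 95% interval from -0.40 to -0.0070).

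Bbc3 and Pmaip1 encode PUMA and NOXA, both known as p53 targets. Bbc3 read 6.013, 6.109 and 6.003 in wildtype livers and 5.79, 5.89 and 5.89 in knockout livers. These groups did not overlap, but the change of -0.18 ± 0.08 was not called (limma adjusted p = 0.122; 95% interval from -0.36 to -0.014). Pmaip1 read 6.77, 6.96 and 6.84 in wildtype livers and 6.82, 6.72 and 6.68 in knockout livers. Its groups overlapped, and the change of -0.12 ± 0.08 was not called either (limma adjusted p = 0.353; 95% interval from -0.30 to 0.067).

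**Figure D2:**
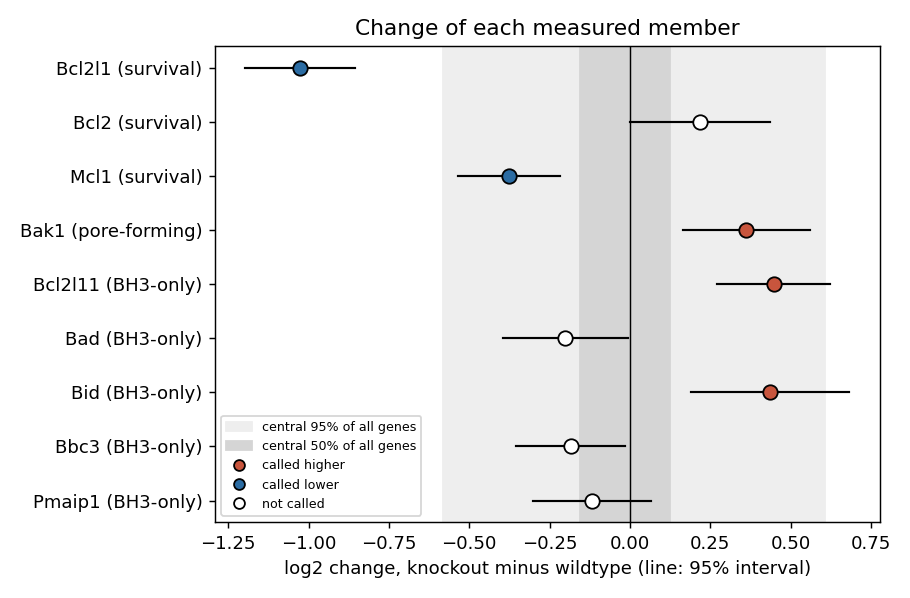
Log2 change of each measured member, knockout minus wildtype, with its 95% interval from limma; the bands hold the central 95% (-0.58 to 0.61) and 50% (-0.16 to 0.12) of all 19937 genes. Bcl2l1, at -1.03, is the only measured member outside the 95% band, while the other called members, Mcl1, Bak1, Bcl2l11 and Bid, lie between the bands' edges.

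**Figure D3:**
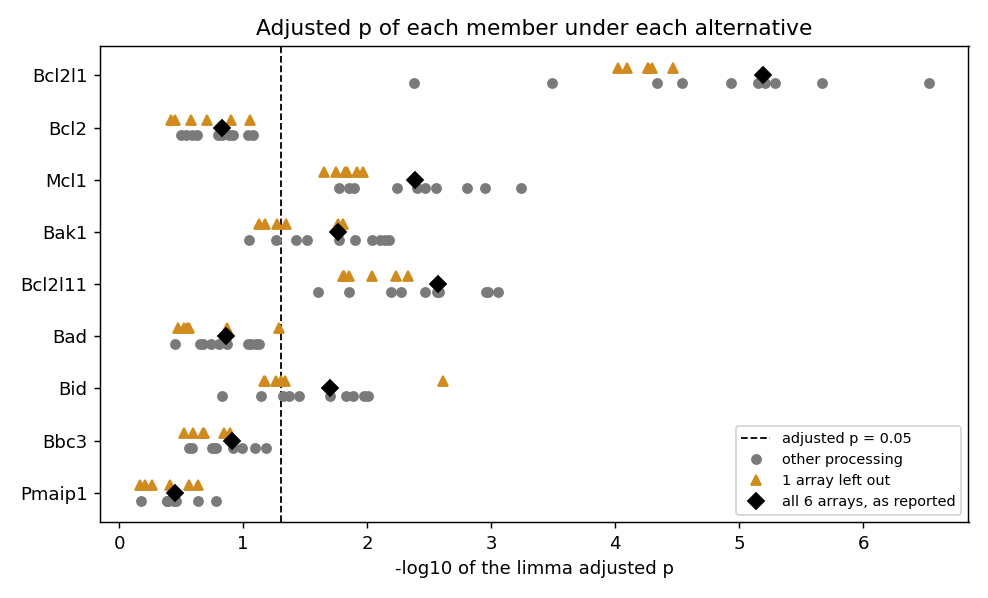
Adjusted p of each member on a -log10 scale with all 6 arrays (diamonds), with 1 array left out (triangles) and with other processing (circles); values right of the dashed line pass 0.05. Bcl2l1, Mcl1 and Bcl2l11 stay right of the line throughout, Bak1 and Bid fall on both sides, and the other 4 stay left.

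The genes with the pattern most like that of Bcl2l1 were found from the 6 values of each gene centred on its own mean. By root-mean-square difference over the 6 arrays the nearest of the other genes was Lbr, the lamin B receptor of the nuclear envelope, at 0.039 log2 units. It was followed by the antiproliferative gene Btg2 at 0.040, Plekhg5 at 0.044, the kinase gene Pak4 at 0.046 and the nuclear envelope gene Sun1 at 0.048. Their changes ran from -1.09 ± 0.08 in Sun1 to -0.98 ± 0.07 in Btg2. The nearest to Bcl2l11 were Sgsh and Tmem198b, both at 0.021, Rasal3 at 0.024, Inpp5f at 0.025 and Plgrkt at 0.027, with changes from 0.42 ± 0.08 in Plgrkt to 0.47 ± 0.07 in Inpp5f. With 6 arrays in 2 groups this likeness rests mostly on the difference between the groups.

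Around the members, 72 of 80 other listed apoptosis genes were measured. Of these 8 rose and 11 fell, 26.4% called against 19.1% of all genes, with a median change of 0.01. They were not compared with genes of like brightness. The rises numbered 4 without knockout replicate 2 or without knockout replicate 3, and the falls 6 without knockout replicate 3.

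Among 14 further relatives or binding partners of the family 2 rose and 2 fell, 28.6% called against 19.1% of all genes. Bnip3, a BH3-like mitophagy receptor gene, gave the largest change of all listed apoptosis genes. It read 9.778, 9.344 and 8.998 in wildtype and 11.71, 11.43 and 11.25 in knockout livers, uneven within both groups yet far apart between them, a rise of 2.09 ± 0.18 (limma adjusted p = 1.5e-05). Its near relative Bnip3l, known for mitochondrial clearance in maturing red cells, fell by 0.35 ± 0.09 (adjusted p = 0.0159), a call lost without knockout replicate 1 or 3, without moderation, and with the mean of its probe sets, where the change was -0.20 (adjusted p = 0.122). Bnip2, which encodes a BCL2-interacting protein, rose by 0.41 ± 0.08, and the relative Bcl2l15 fell by 0.34 ± 0.10 (adjusted p = 0.0443), a call held in 5 of 16 alternatives. The other 10, among them the survival gene Bcl2l2 and the BH3-only genes Bik, Bmf and Hrk, were not called, with changes between -0.30 and 0.20.

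Downstream at the mitochondria, 2 of 19 genes rose and 3 fell, 26.3% called against 19.1% of all genes. Apaf1, the scaffold on which cytochrome c assembles the apoptosome, read 9.56, 9.55 and 9.52 in wildtype and 10.23, 10.29 and 10.21 in knockout livers. Its groups were tight and well apart, and it rose by 0.70 ± 0.07 (limma adjusted p = 6.6e-05), a call held in all 17 alternatives. Birc5, the survivin gene that also serves in mitosis, fell by 0.50 ± 0.08, Htra2, a mitochondrial protease that counters the inhibitors of apoptosis, by 0.48 ± 0.07, and the initiator caspase gene Casp2 by 0.38 ± 0.08. The nuclease gene Endog rose by 0.26 ± 0.08 (adjusted p = 0.0360), a call held in 6 of 16 alternatives. The remaining 14 were not called and lay between -0.23 and 0.24, among them Casp9, Xiap, Cycs, Diablo and the 3 channel genes Vdac1, Vdac2 and Vdac3.

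In the death receptor pathway, which feeds into Bid, 1 of 12 genes was called, or 8.33%, against 19.1% of all genes. Cflar, which encodes the caspase 8 inhibitor c-FLIP, read 7.80, 7.70 and 7.69 in wildtype and 8.159, 8.197 and 8.177 in knockout livers, and rose by 0.45 ± 0.07 (limma adjusted p = 0.0018). Casp8, Fas, Fadd and the other 8 were not called, with changes between -0.23 and 0.31.

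Upstream regulators of the family had 5 of 15 lower and 2 higher, 46.7% called against 19.1% of all genes. Gata1 also stands in the erythroid marker list and Kit in the progenitor list. Epor, the erythropoietin receptor gene, which also stands in the erythroid marker list, read 10.52, 10.78 and 10.94 in wildtype and 9.981, 9.996 and 10.128 in knockout livers, with no overlap. It fell by 0.71 ± 0.11 (limma adjusted p = 0.00094). Foxo3, known as an activator of Bcl2l11, read 10.22, 10.34 and 10.38 in wildtype and 9.72, 9.72 and 9.72 in knockout livers. It fell by 0.60 ± 0.08 (adjusted p = 0.00033), opposite in direction to Bcl2l11, and a link between these genes was not tested. E2f1 fell by 0.59 ± 0.10, the stress factor gene Atf4 by 0.30 ± 0.08 and the survival kinase gene Pim1, a Stat5 target, by 0.27 ± 0.07, while Stat5b rose by 0.32 ± 0.08 and Mdm2, which restrains p53, by 0.33 ± 0.08. Pim1 kept its call in 7 of 17 alternatives and Atf4 in 12. Mdm2 and Stat5b lost theirs without knockout replicate 2 or 3, and Epor and E2f1 without moderation of the variances (adjusted p = 0.0509 and 0.0668). Jak2, Stat5a, Gata1, Kit, Akt1, Ddit3, Mdm4 and Trp73 were not called, between -0.21 and 0.22.

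Genes that act on the proteins of the family had 1 of 12 higher and 1 lower, 16.7% called against 19.1% of all genes. Bag3, a cochaperone that binds BCL2, rose by 0.35 ± 0.09 (limma adjusted p = 0.0221) and Marchf5, a ubiquitin ligase of the outer mitochondrial membrane, fell by 0.38 ± 0.10 (adjusted p = 0.0243). Both calls were among the less stable, held in 8 and 10 of 17 alternatives. The Mcl1 regulators Huwe1, Usp9x and Fbxw7 and 7 more were not called, between -0.17 and 0.25.

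**Figure D4:**
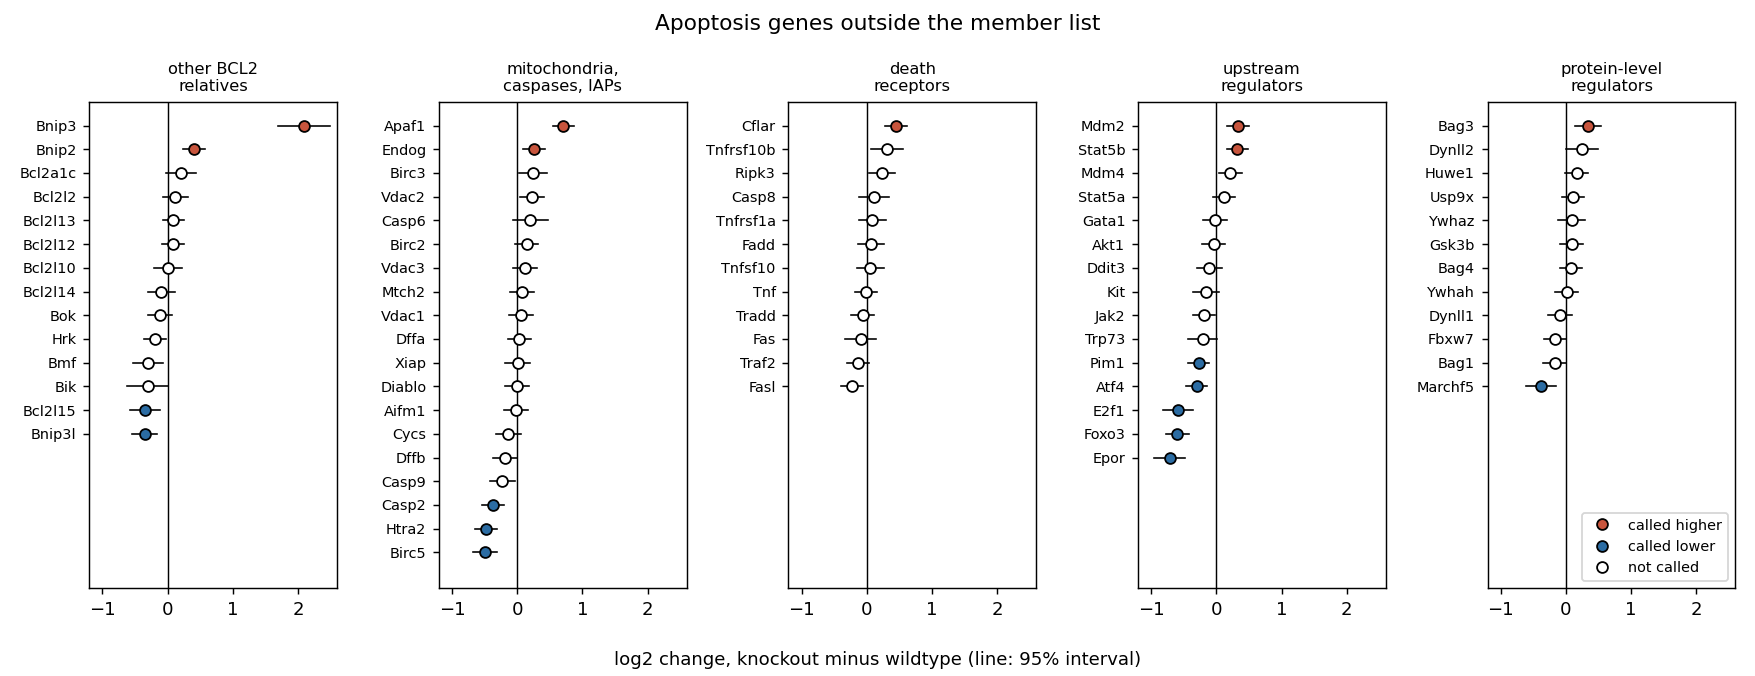
Log2 change, knockout minus wildtype, of the 72 measured apoptosis genes outside the member list, in 5 groups, with 95% intervals from limma; filled points were called. Bnip3 stands farthest out at 2.09, Apaf1 leads the caspase group at 0.70, and Epor is lowest at -0.71.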

How the data were processed

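The authors deposited 1 linear intensity per probe set and array. RMA and Affymetrix Power Tools 1.8.6 are named in the submitters' processing notes, and no genome build is. Because RMA gives arrays like distributions, a change in a liver's total RNA does not show. Log2 was taken with no further normalization and no filter. Probe sets were named through the platform table: of 34760, 21640 had 1 gene, 1321 several and 11799 none, and 0 symbols changed on update. A gene was its brightest single-gene probe set.

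The 2-sided test was that of limma 3.58.1 (R 4.3.3; lmFit, then eBayes), with genotype as its sole term. Exact permutation of 3 against 3 cannot go below p = 0.1. Members and gene lists were chosen with earlier results of these data known. Genes named are Klf1, all members, called pathway genes (up to 8 per list), the 5 nearest in pattern to Bcl2l1 and to Bcl2l11, and the leading called gene of each marker list; uncalled genes and Alb and Afp were named after their values were seen. Alternatives covered scaling, a filter on dim genes, probe set choice, array weights, variance models, a replicate block, a stricter threshold and leaving out each array.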

Additional observations from a re-analysis of the deposited data

How the results depend on the processing

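Among the members, 139 of 151 alternative values kept their direction and their side of the threshold. The 12 exceptions were lost calls of Bak1 and Bid, and 0 values changed sign. Many of these values could not change sign. The filter, probe set choice, variance models, replicate block and stricter threshold left each member's change as it was. Only scaling, array weights and leaving out an array could move it. The 3 members called higher became 1 when every probe set was tested, without moderation and at adjusted p under 0.01, and ran from 1 to 3 with 1 array left out; the 2 called lower stayed 2 throughout. Over all genes, 2163 were higher and 1646 lower. These became 1377 and 985 with every probe set tested, 1128 and 955 without moderation, and 1160 and 835 at the stricter threshold. With 1 array left out they ran from 1371 to 2106 and from 1026 to 1643, lowest without knockout replicate 2 or 3. Housekeeping centring called 996 lower, so 29.1% of calls were lower, against 43.2% as reported and 55.5% with 75th percentile centring. The housekeeping list shares Ywhaz with the pathway lists. Of the pathway genes, 8 higher and 11 lower became 4 and 6 at the stricter threshold, and 7 were lower without moderation. With 1 array left out they ran from 4 to 8 and from 6 to 11. The stricter threshold lowers counts by construction; elsewhere the cause was not tested. The replicate numbers gave no sign of pairing: deviations of same-numbered arrays correlated at -0.156, -0.224 and 0.183. Other pairs of a wildtype and a knockout array lay between -0.165 and 0.329. Centring on means of 3 arrays constrains these values, and pairing in another order was not tested. A replicate block called 2002 genes higher and 1496 lower and kept 3 and 2 members. The filter on dim genes left Bbc3 and Pmaip1 out. Signal over background was not measured here.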
